A study of Homo sapiens with 4 samples.

Results

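CHAF1A peaks of 1 kb or more were 5468 of the 97492 peaks on chromosomes 1 to 22 and X in the si-CHAF1A list, and 3340 of 76151 in the si-Ctrl list. Members were chosen by 2 deposited values, a width (end minus start) of at least 1000 bp and a −log10 p under 290. The limit on p left out 442 wide si-CHAF1A peaks and 315 wide si-Ctrl peaks, whose strength lies past that bound. Widths, folds, p-values and summit positions of the members come from the same peaks that the choice used, so they are given as descriptions. Gene positions and the peaks of the other list were not used in choosing them.

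The data are CUT&Tag profiles of CHAF1A in RBE, an established human cell line of intrahepatic cholangiocarcinoma. In si-CHAF1A cells an siRNA against CHAF1A was transfected, and in si-Ctrl cells a control siRNA, with harvest 48 hours later and 2 samples in each group. Both groups were RBE cells grown, transfected with a lipid reagent and tagmented in the same way per the labels, and neither carried another named treatment. 1 peak list was available per group, and it does not keep the 2 samples apart, so differences between the lists stand without replicates and carry no p-value. The list named si is read as si-CHAF1A and the list named NC as si-Ctrl, names that match the sample titles only in part. A peak list does not measure how far CHAF1A itself was depleted, and the knockdown could not be checked here.

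CHAF1A is the large subunit of chromatin assembly factor 1 (CAF-1), the histone chaperone that places newly made H3-H4 on DNA behind the replication fork, where it is tethered by the sliding clamp PCNA. CUT&Tag directs a transposase to an antibody-bound protein, and the transposase cuts most readily in open chromatin. Promoters rich in CpG dinucleotides are open in most cell types, and many of them fire in both directions. Peak callers join neighbouring enriched stretches, so a broad peak can hold 1 long stretch or several short ones.

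6 promoters show the range of DNA under these peaks. The 250 bases before a listed gene start are printed 5′ to 3′ along the gene, from RefSeq on GRCh38.p14. ANG, SEPTIN9 and KRT8 have the widest peaks among genes with a named symbol and a listed start where both lists held a member; LRRIQ4 and TINAG lay under the widest such member with no peak in the other list; and ANKRD33B had the summit farthest from the peak centre in the si-CHAF1A list. Capitals in ANG mark the 72 bases of the proline tRNA gene TRP-TGG3-2. Capitals in the others mark, on either strand, any of GGGCGG (known as a string of SP1), CCGGAAG (of ETS factors), CCAAT (of NF-Y), GCGCNTGCG (of NRF1), ATGGCGG (of YY1), CACGTG (the E-box), TGACGTCA (of CREB) and TATAAA (the TATA box).
ANG: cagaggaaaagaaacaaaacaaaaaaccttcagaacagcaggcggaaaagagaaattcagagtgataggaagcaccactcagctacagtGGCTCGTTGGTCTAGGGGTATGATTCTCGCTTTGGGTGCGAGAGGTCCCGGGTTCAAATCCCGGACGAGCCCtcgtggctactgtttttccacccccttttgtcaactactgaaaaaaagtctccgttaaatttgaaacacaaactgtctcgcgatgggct
SEPTIN9: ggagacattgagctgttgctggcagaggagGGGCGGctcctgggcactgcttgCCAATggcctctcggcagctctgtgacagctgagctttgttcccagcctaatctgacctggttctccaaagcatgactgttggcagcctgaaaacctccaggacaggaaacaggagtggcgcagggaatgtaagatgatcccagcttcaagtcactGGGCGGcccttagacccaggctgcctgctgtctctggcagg
KRT8: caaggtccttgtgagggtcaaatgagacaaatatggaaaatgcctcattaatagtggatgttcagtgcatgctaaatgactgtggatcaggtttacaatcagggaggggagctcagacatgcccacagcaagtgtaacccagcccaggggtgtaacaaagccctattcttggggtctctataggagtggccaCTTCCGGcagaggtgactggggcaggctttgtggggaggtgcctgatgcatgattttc
LRRIQ4: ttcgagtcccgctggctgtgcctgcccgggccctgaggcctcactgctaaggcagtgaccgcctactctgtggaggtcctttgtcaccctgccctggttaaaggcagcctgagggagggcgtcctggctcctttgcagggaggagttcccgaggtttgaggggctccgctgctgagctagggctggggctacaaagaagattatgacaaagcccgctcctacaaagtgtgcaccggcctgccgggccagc
TINAG: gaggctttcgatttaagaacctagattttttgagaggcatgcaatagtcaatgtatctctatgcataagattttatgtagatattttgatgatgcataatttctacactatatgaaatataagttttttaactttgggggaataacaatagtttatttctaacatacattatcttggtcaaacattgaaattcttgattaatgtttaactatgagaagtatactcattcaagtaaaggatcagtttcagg
ANKRD33B: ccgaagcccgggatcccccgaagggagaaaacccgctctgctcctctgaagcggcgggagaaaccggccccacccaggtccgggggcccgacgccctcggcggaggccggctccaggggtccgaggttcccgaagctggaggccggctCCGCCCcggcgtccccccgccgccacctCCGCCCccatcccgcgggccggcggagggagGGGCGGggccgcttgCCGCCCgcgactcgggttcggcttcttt

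The ANG window, chr14:20683927-20684176 on the plus strand, held 11 CpGs and none of the 8 letter strings. The SEPTIN9 window, chr17:77287685-77287934 on the plus strand, held 4 CpGs, GGGCGG at 2 places and CCAAT at 1. The KRT8 window, chr12:52926470-52926719 on the minus strand, held 1 CpG and CCGGAAG at 1 place, written on the opposite strand. LRRIQ4 (chr3:169812620-169812869, plus) had 10 CpGs, and TINAG (chr6:54308191-54308440, plus) had 1 CpG in 250 bases of 28.4% G or C. ANKRD33B (chr5:10563820-10564069, plus) stood at the other end, with 33 CpGs, 77.2% G or C and GGGCGG at 4 places. The 300-base promoters searched below run from 250 bases before to 50 after each start.

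The lists differed in depth. The most frequent local background, which stands for the whole genome, was 8.49 reads in the si-CHAF1A list and 6.34 reads in the si-Ctrl list, a ratio of 1.34. With −log10 p under 290 the si-CHAF1A list held 96710 peaks and the si-Ctrl list 75504. Since depth differs with the groups, an effect of depth and an effect of the siRNA on width, fold or number cannot be told apart. All intervals below are 95% intervals, exact binomial (Clopper-Pearson) for shares and from order statistics for medians, and cover counting error only.

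Members made up 5.65% of si-CHAF1A peaks (interval 5.51% to 5.80%) and 4.42% of si-Ctrl peaks (4.28% to 4.57%). They held 16.9% of all bases under si-CHAF1A peaks and 13.6% of those under si-Ctrl peaks. Their median width was 1216 bp in the si-CHAF1A list and 1183.5 bp in the si-Ctrl list, and the widest reached 3381 bp in si-CHAF1A and 3340 bp in si-Ctrl. Widths of 2000 bp or more were seen for 203 si-CHAF1A peaks and 114 si-Ctrl peaks. Near the width limit, the si-CHAF1A list had 833 peaks less than 50 bp above it and 946 up to 50 bp below it, with median folds of 4.51 and 4.33. The si-Ctrl list had 567 such peaks above and 660 below, with median folds of 5.91 and 5.92, so the limit cuts a continuous range.

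Fold enrichment is the pileup over the local background at the summit, as the authors' peak caller gave it. Its median over members was 4.66 in the si-CHAF1A list (interval 4.61 to 4.73) and 5.99 in the si-Ctrl list (5.90 to 6.10). Over all peaks it was 3.18 in si-CHAF1A and 3.70 in si-Ctrl. Members stood on a raised floor: the median local background was 2.43 times that of the genome in the si-CHAF1A list and 2.73 times in the si-Ctrl list, against 1.38 times for narrower si-CHAF1A peaks and 1.48 times for narrower si-Ctrl peaks. In each class of −log10 p from 10 upward, narrower peaks had the higher median fold. Fold and −log10 p come from the same pileup and background, so at a like −log10 p a lower background gives a higher fold. This order is thus no separate result. At −log10 p of 80 to 160, the median fold of si-CHAF1A peaks was 7.36 for members, 8.02 at 500 bp to under 1 kb and 9.28 under 500 bp. The si-Ctrl values in that class were 8.27, 9.08 and 9.45.

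Summits of members lay nearer the middle than those of the narrowest peaks. The summit fell in the middle 50% of the width for 65.7% of si-CHAF1A members and 66.2% of si-Ctrl members, beside 48.7% of si-CHAF1A and 51.8% of si-Ctrl peaks under 500 bp. Peaks of 500 bp to under 1 kb gave 62.7% in si-CHAF1A and 65.5% in si-Ctrl. In peaks of 2 kb or more the share was lower, at 62.1% in si-CHAF1A and 55.3% in si-Ctrl. The median distance of the summit from the centre was 0.186 of the width in the si-CHAF1A list (interval 0.180 to 0.191) and 0.183 in the si-Ctrl list (0.176 to 0.189). Among members at gene starts, ANKRD33B had its si-CHAF1A summit at 1.00 of the width, as did NID1, a basement membrane protein, in the si-Ctrl list. At ANKRD33B the si-Ctrl list had 2 narrower peaks of 359 and 281 bp, and at NID1 the si-CHAF1A list had 1 peak of 1420 bp with its summit at 0.90.

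At protein-coding gene starts, defined as within 1 kb of a listed 5′ end (or of either boundary for the 4159 of 19970 genes with none listed), lay 50.1% of si-CHAF1A members (2738 peaks) and 53.5% of si-Ctrl members (1787 peaks). The same share over all peaks was 14.1% in si-CHAF1A and 17.0% in si-Ctrl. For genes with no listed 5′ end, a peak counted at a start may lie at the far end of the gene instead. A wider peak also touches a start window more often through its length, and this was not corrected for. lncRNA starts took a further 4.85% of si-CHAF1A members and 4.88% of si-Ctrl members. The bodies of protein-coding genes took 23.1% of si-CHAF1A and 18.5% of si-Ctrl members, and other genes 6.80% of si-CHAF1A and 7.43% of si-Ctrl members. Outside genes lay 15.1% of si-CHAF1A and 15.7% of si-Ctrl members. Over all peaks, protein-coding gene bodies held 41.5% in si-CHAF1A and 39.1% in si-Ctrl, so members lay there less often.

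**Figure D1:**
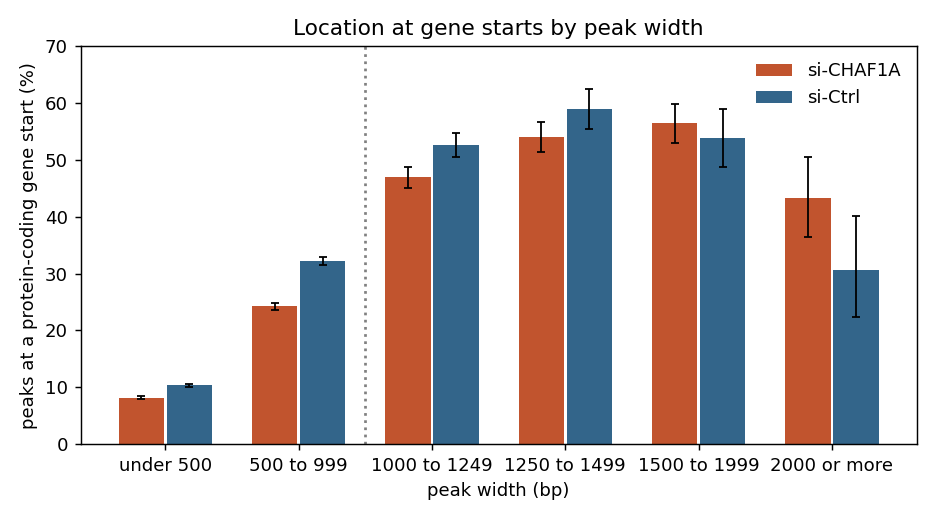
Share of peaks at a protein-coding gene start (y axis, percent) by peak width in bp (x axis), for the si-CHAF1A list and the si-Ctrl list; error bars are 95% exact binomial intervals and the dotted line marks 1000 bp. The share is highest at 56.4% in the si-CHAF1A list and 59.0% in the si-Ctrl list, both between 1 and 2 kb, and is lower again from 2000 bp on.

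The share at starts did not go on increasing with width. In 3 width classes from 1 to 2 kb, whose median widths were 1100, 1348 and 1639 bp, it was 46.9%, 54.1% and 56.4% for si-CHAF1A members, and it was 43.3% (36.4% to 50.5%) for those of 2000 bp or more. In the si-Ctrl list, with median widths of 1100, 1349 and 1633 bp, it was 52.6%, 59.0% and 53.9%, and 30.7% (22.4% to 40%) from 2000 bp on. Outside genes lay 19.7% of the si-CHAF1A peaks and 29.8% of the si-Ctrl peaks of 2000 bp or more.

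Members were also set beside narrower peaks of the same strength. In each class of −log10 p from 10 upward, members lay at starts more often than narrower peaks of the same list. Matching by strength does not remove the longer reach of a wider peak, which was not corrected for. At −log10 p of 40 to 80, the si-CHAF1A list had 65.3% of 1279 members at starts, 50.8% of peaks of 500 bp to under 1 kb and 20.3% of peaks under 500 bp. The si-Ctrl list had 60.8% of 982 members, 44.5% and 20.5%. Only in the weakest class, −log10 p of 5 to 10, did the si-CHAF1A members (7.84% of 51) not exceed peaks of 500 bp to under 1 kb (8.19%). The narrow, strong peaks were away from starts: of those under 500 bp with −log10 p of 160 to 290, 3.26% of 92 si-CHAF1A peaks and 12.1% of 116 si-Ctrl peaks lay there.

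**Figure D2:**
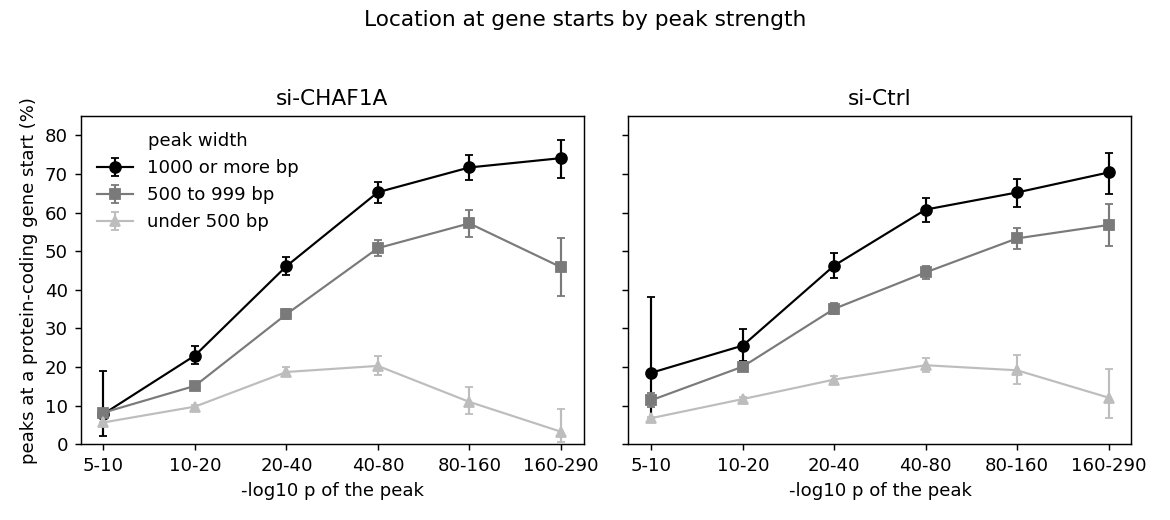
Share of peaks at a protein-coding gene start (y axis, percent) by class of −log10 p (x axis) for 3 width classes, si-CHAF1A list left and si-Ctrl list right; error bars are 95% exact binomial intervals. Peaks of 1000 bp or more reach 74.1% in the si-CHAF1A list and 70.4% in the si-Ctrl list at −log10 p of 160 to 290, and peaks under 500 bp reach at most 20.3% in si-CHAF1A and 20.5% in si-Ctrl.

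The widest peak at a gene start in both lists covered ANG and RNASE4, a pair of secreted ribonucleases that share a promoter region. It was 3100 bp wide in the si-CHAF1A list (chr14:20681866-20684965, hg38) and 2654 bp in the si-Ctrl list (chr14:20682401-20685054), with folds of 4.07 in si-CHAF1A and 4.46 in si-Ctrl. The peak also held 2 tRNA genes, the tyrosine gene TRY-GTA5-5 and the proline gene TRP-TGG3-2 shown in capitals above. Relative to the ANG start, its summit lay at −1600 bp in the si-CHAF1A list and at −1628 bp in the si-Ctrl list, upstream of both tRNA genes.

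CTC1, a subunit of the CST complex that helps to copy telomere ends, had a 2782 bp si-CHAF1A peak (chr17:8221185-8223966, fold 3.78) over the tRNA genes TRG-TCC3-1, TRD-GTC2-11 and TRP-CGG1-3. The si-Ctrl list had a 2232 bp peak (fold 3.44) and a 191 bp peak (fold 2.2) there. At SIRT4, a mitochondrial sirtuin, the si-CHAF1A peak was 2427 bp (fold 5.17) and the si-Ctrl peak 2401 bp (chr12:120290875-120293275, fold 5.61). The si-Ctrl peak at SIRT4 also covered RNU4-1 and RNU4-2, genes of the U4 spliceosomal RNA. In all 3 places a member covered small RNA genes. CTC1 had no listed start, so either boundary stood for it, and the si-CHAF1A peak did not overlap the CTC1 body.

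Over the whole set, 26 si-CHAF1A members (0.475%) and 42 si-Ctrl members (1.26%) covered a tRNA gene, beside 0.0869% of all si-CHAF1A peaks and 0.201% of all si-Ctrl peaks. Genes of snRNAs were covered by 21 si-CHAF1A members (0.384%) and 22 si-Ctrl members (0.659%), beside 0.0414% of all si-CHAF1A and 0.0622% of all si-Ctrl peaks. Genes of miRNAs were covered by 35 si-CHAF1A members (0.640%) and 26 si-Ctrl members (0.778%), beside 0.157% of all si-CHAF1A and 0.180% of all si-Ctrl peaks. A wider peak covers more bases, so such shares rise with width alone. Members held 16.9% of the bases under si-CHAF1A peaks and 13.6% of those under si-Ctrl peaks. They were 26 of 84 si-CHAF1A and 42 of 152 si-Ctrl peaks over tRNA genes. For snRNA genes they were 21 of 40 and 22 of 47, and for miRNA genes 35 of 152 and 26 of 136. With peaks of every width and strength counted, 102 of 443 tRNA genes lay under a si-CHAF1A peak and 180 under a si-Ctrl peak, of which 90 were under both. Under peaks of 1 kb or more of any strength lay 39 tRNA genes in the si-CHAF1A list and 64 in the si-Ctrl list. The si-Ctrl list, the shallower one, thus had more tRNA genes under peaks. The tRNA and other small RNA genes were looked at after the widest peaks had been seen.

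SEPTIN9, KRT8 and AJM1 were also among the genes with the widest members at starts. SEPTIN9, a septin of the cytoskeleton, had a si-CHAF1A peak of 2900 bp (chr17:77286073-77288972, fold 3.47), where the si-Ctrl list had peaks of 2140 bp (fold 4.22) and 229 bp (fold 2.71). KRT8, a keratin of simple epithelia such as bile ducts, had a si-CHAF1A peak of 2749 bp (chr12:52925032-52927780, fold 4.07) over si-Ctrl peaks of 1440 bp (fold 3.58) and 917 bp (fold 5.89). AJM1, a protein of epithelial junctions, had a si-CHAF1A peak of 2675 bp (fold 2.80) and si-Ctrl peaks of 617 and 668 bp (folds 2.53 and 3.78). At these 3 genes 1 si-CHAF1A peak spanned 2 si-Ctrl peaks.

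H2BC18 and H3C13, histone genes of the chromosome 1 cluster that are used in S phase, shared a si-CHAF1A peak of 2699 bp (chr1:149811013-149813711, fold 5.43) over si-Ctrl peaks of 2136 bp (fold 6.89) and 269 bp (fold 2.69). LOC107984876, an uncharacterised gene whose peak also covered part of LMF1, had 2689 bp (fold 5.41) in the si-CHAF1A list and 2401 bp (fold 6.05) in the si-Ctrl list. LOC107987020 had 2803 bp (fold 5.37) in the si-CHAF1A list, and 2089 and 324 bp (folds 4.98 and 2.63) in the si-Ctrl list.

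At some genes the si-Ctrl peak was the wider. SQSTM1, the autophagy receptor p62, had 1573 bp (fold 3.05) in the si-CHAF1A list and 2485 bp (chr5:179818284-179820768, fold 2.72) in the si-Ctrl list. TANC1, a scaffold protein, had 1753 bp (fold 8.98) in si-CHAF1A and 2449 bp (chr2:158967567-158970015, fold 9.07) in si-Ctrl. CDK17, a cyclin-dependent kinase, had si-CHAF1A peaks of 1138 and 630 bp (folds 4.96 and 3.57) and a si-Ctrl peak of 2428 bp (fold 4.43). At ITPKC, an inositol trisphosphate kinase whose start adjoins that of COQ8B, the widths were nearly equal, 2434 bp (fold 6.35) in si-CHAF1A and 2428 bp (fold 6.81) in si-Ctrl. LOC124905596, at the TERT locus on chromosome 5, had 2353 bp (fold 7.93) in si-CHAF1A and 2390 bp (fold 9.26) in si-Ctrl.

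Away from gene starts the widest members were wider still. The widest in the si-CHAF1A list were 2 peaks of 3381 bp, 1 on chromosome 21 in the non-coding LOC105377134 (chr21:14055954-14059334, fold 4.44) and 1 on chromosome 2 in LOC107985915 (chr2:94212201-94215581, fold 3.14). At LOC105377134 the si-Ctrl list had peaks of 710 and 2213 bp. At LOC107985915 its peak was 3205 bp with the same left edge. Outside genes on chromosome 4, a si-CHAF1A peak of 3317 bp (fold 5.64) met the widest si-Ctrl member, 3340 bp (chr4:188151291-188154630, fold 5.54), again with the same left edge. A peak outside genes on chromosome 15 was 3041 bp in both lists (chr15:17080532-17083572 in si-CHAF1A, with edges 1 bp lower in si-Ctrl), with folds of 7.69 in si-CHAF1A and 8.62 in si-Ctrl. Its summit was at 0.82 of the width in si-CHAF1A and 0.11 in si-Ctrl. Peaks in repeated sequence were not filtered out here, and whether these widest peaks lie in such sequence was not tested.

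Within protein-coding genes, ADPRHL1 had a 3033 bp si-CHAF1A peak (chr13:113434368-113437400, fold 6.22) and a 2943 bp si-Ctrl peak (fold 7.07). RASA3, a GTPase-activating protein for Ras, had 3108 bp (fold 3.29) in si-CHAF1A over 1724 and 770 bp in si-Ctrl. FAIM2, an inhibitor of Fas-mediated cell death, had 3078 bp (fold 3.24) in si-CHAF1A over 979 and 1699 bp in si-Ctrl. FOXN1, a transcription factor of thymic epithelium, had the reverse, si-CHAF1A peaks of 1603 and 1169 bp (folds 3.49 and 5.45) under 1 si-Ctrl peak of 2967 bp (chr17:28515245-28518211, fold 5.51).

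By chromosome, the share of peaks that were members was highest on chromosome 21 (8.21% of 1072 si-CHAF1A peaks and 6.88% of 959 si-Ctrl peaks) and next on chromosome 19 (7.17% in si-CHAF1A and 5.70% in si-Ctrl). Chromosome 13 had the lowest share in the si-CHAF1A list (4.18%) and chromosome 22 in the si-Ctrl list (2.88%, interval 1.96% to 4.06%). On chromosome 21 members lay at starts less often than elsewhere, at 30.7% in si-CHAF1A and 22.7% in si-Ctrl, and none of its 6 si-CHAF1A and 9 si-Ctrl peaks of 2000 bp or more was at a start. On the gene-dense chromosome 19, 53.3% of si-CHAF1A members and 65.6% of si-Ctrl members were at starts.

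Around gene starts the members reached to both sides. Listed starts lay inside 2114 si-CHAF1A members and 1442 si-Ctrl members, and 1367 of the si-CHAF1A and 914 of the si-Ctrl ones held starts of 1 direction only, with no opposite start within 1 kb. Over these, the median reach was 575 bp before the start and 685 bp after it in the si-CHAF1A list, and 586 bp and 629 bp in the si-Ctrl list. The downstream side was the longer for 57.4% of si-CHAF1A members (54.7% to 60.0%) and 52.6% of si-Ctrl members (49.3% to 55.9%). The summit lay mostly before the start, at a median of −72 bp in si-CHAF1A and −92.5 bp in si-Ctrl. It lay after the start for 32.9% of si-CHAF1A members (30.4% to 35.5%) and 22.4% of si-Ctrl members (19.8% to 25.3%). Narrower si-CHAF1A peaks also had their summit after the start more often than those of si-Ctrl, at 35.1% in si-CHAF1A and 27.8% in si-Ctrl for 500 bp to under 1 kb, so the difference was not particular to broad peaks.

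**Figure D3:**
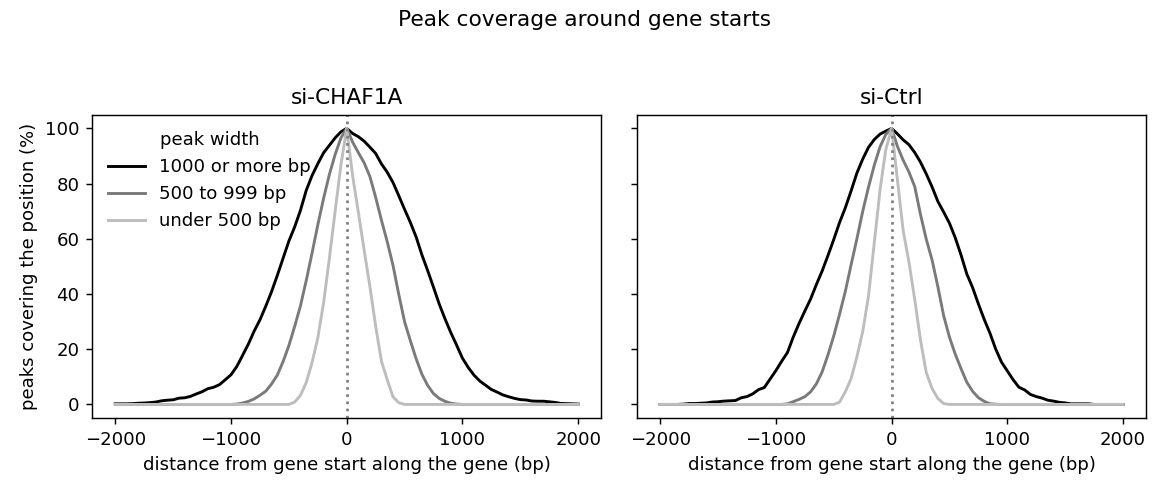
Percent of peaks that cover each position (y axis) by distance from the gene start along the gene in bp (x axis, negative is upstream), for peaks over starts of 1 direction, in 3 width classes, si-CHAF1A left and si-Ctrl right. At 1000 bp after the start, 16.8% of si-CHAF1A members and 12.1% of si-Ctrl members still cover the position, beside 10.8% of si-CHAF1A and 12.3% of si-Ctrl members at 1000 bp before it.

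Broad peaks more often had an opposite start nearby. A listed start on the other strand lay within 1 kb of the start for 35.3% of si-CHAF1A members over listed starts (33.3% to 37.4%) and 36.6% of si-Ctrl members (34.1% to 39.2%). For peaks of 500 bp to under 1 kb it was 26.5% in si-CHAF1A and 30.1% in si-Ctrl, and for peaks under 500 bp 20% in si-CHAF1A and 20.1% in si-Ctrl. At −log10 p of 40 to 80 the shares were 38.2% of 671 si-CHAF1A members beside 28.3% of peaks of 500 bp to under 1 kb, and 36.4% of 495 si-Ctrl members beside 29.9%. The shares were closer at −log10 p of 10 to 20 in si-CHAF1A, with 22.4% of members beside 20.8%, and at 20 to 40 in si-Ctrl, with 32.6% of members beside 32.0%. At −log10 p of 160 to 290 the si-CHAF1A order turned, with 37.2% of 188 members and 38.1% of 63 peaks of 500 bp to under 1 kb. As an example, the start of RPL7A, a ribosomal protein, faced that of the Mediator subunit MED22 under peaks of 2387 bp in si-CHAF1A (fold 4.52) and 2075 bp in si-Ctrl (fold 5.37). The heterochromatin protein gene CBX5 shared a peak with HNRNPA1, which had no listed start, so this pair was not counted above. That peak was 1287 bp (fold 5.71) in si-CHAF1A and 1441 bp (fold 8.23) in si-Ctrl.

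The promoters at members were CpG-rich. The median count of CpG in 300 bases was 27 for the 3572 promoters at si-CHAF1A members and for the 2438 at si-Ctrl members, 21 for all 22131 promoters, 7 for promoters with no si-CHAF1A peak and 8 for those with no si-Ctrl peak. TATAAA, the core of the TATA box, was in 4.12% of promoters at si-CHAF1A members (3.49% to 4.82%) and 4.27% at si-Ctrl members, beside 9.46% of all promoters. GGGCGG, letters that SP1 binds, was in 74.1% at si-CHAF1A members and 74.9% at si-Ctrl members, beside 56.3% of all. CCGGAAG, letters of ETS factors, was in 18.0% at si-CHAF1A members and 18.9% at si-Ctrl members, beside 12.8% of all. These strings of CpG-rich promoters were thus more frequent than over all promoters, and TATAAA less so. All promoters include those with no peak, and promoters under narrower peaks are compared below. CCAAT was in 37.7% at si-CHAF1A and 40.2% at si-Ctrl members (all 34.6%), and GCGCNTGCG, the NRF1 string, in 14.9% at si-CHAF1A and 16.0% at si-Ctrl members (all 9.55%). ATGGCGG, the YY1 string, was in 10.6% at si-CHAF1A and 10.3% at si-Ctrl members (all 6.99%). CACGTG, the E-box, was in 9.88% at si-CHAF1A and 9.84% at si-Ctrl members (all 8.34%), and TGACGTCA, the CREB string, in 2.30% at si-CHAF1A and 2.63% at si-Ctrl members (all 2.26%).

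Among promoters that had a peak, those under narrower peaks were also set beside those at members. Promoters whose widest peak was 500 bp to under 1 kb had median CpG counts of 26 in si-CHAF1A and 27 in si-Ctrl, GGGCGG in 70.4% in si-CHAF1A and 72.8% in si-Ctrl, and CCGGAAG in 19.5% in si-CHAF1A and 20.2% in si-Ctrl. At these promoters TATAAA was in 5.14% in si-CHAF1A and 4.47% in si-Ctrl, and CCAAT in 36.98% and 36.92%. The NRF1 string was in 14.8% in si-CHAF1A and 15.2% in si-Ctrl, and the CREB string in 3.46% and 3.27%. The E-box was in 10.1% in si-CHAF1A and 9.66% in si-Ctrl. The YY1 string was in 10.2% in si-CHAF1A, and in si-Ctrl its share was above that at members. The differences of members from all promoters were thus mostly seen under these narrower peaks too. Promoters whose widest peak was under 500 bp had median CpG counts of 23 in si-CHAF1A and 24 in si-Ctrl. In that class GGGCGG was in 62.0% in si-CHAF1A and 63.7% in si-Ctrl, CCGGAAG in 14.9% in si-CHAF1A and 16.1% in si-Ctrl, and TATAAA in 6.41% in si-CHAF1A and 6.32% in si-Ctrl. Both strands were searched, overlapping matches of different strings were counted for each, and a match describes letters only.

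Nearly all members were met by a peak of the other list. A si-Ctrl peak overlapped 95.9% of si-CHAF1A members by at least 1 bp (95.4% to 96.4%), beside 47.0% of all si-CHAF1A peaks. A si-CHAF1A peak overlapped 99.2% of si-Ctrl members (98.8% to 99.5%), beside 61.5% of all si-Ctrl peaks. Strength goes with sharing: at −log10 p of 10 to 20, 85.4% of si-CHAF1A members were shared, beside 65.8% of peaks of 500 bp to under 1 kb and 45.6% of peaks under 500 bp. The si-Ctrl shares in that class were 97.5%, 84.1% and 56.5%. A longer peak also meets an overlap of 1 bp more often through its length, and this was not corrected for. From −log10 p of 40 on, at least 99.7% of members in either list were shared.

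What the other list held was often narrower. Of si-CHAF1A members, 42.7% met a si-Ctrl member, 0.457% a wide si-Ctrl peak past the limit on p, 38.4% 1 narrower peak, 14.3% 2 or more narrower peaks, and 4.06% no peak. Of si-Ctrl members, 69.9% met a si-CHAF1A member, 2.46% a wide si-CHAF1A peak past that limit, 20.4% 1 narrower peak, 6.41% 2 or more narrower peaks, and 0.808% no peak. Counted with partners of any width, 915 si-CHAF1A members spanned 2 or more si-Ctrl peaks and 277 si-Ctrl members spanned 2 or more si-CHAF1A peaks. VCAN, an extracellular matrix proteoglycan, and PAN3, a subunit of a deadenylase, each had a si-CHAF1A peak (2136 and 2122 bp) over 3 si-Ctrl peaks. ACTR1B, a dynactin subunit, had a si-Ctrl peak of 1501 bp over 3 si-CHAF1A peaks.

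In 2321 places 1 si-CHAF1A member met 1 si-Ctrl member. The si-CHAF1A peak was the wider in 1457 of these (62.8%), with a median ratio of 1.03 and quartiles of 0.971 and 1.15. Its fold was the lower in 1792 (77.2%), with medians of 5.41 in si-CHAF1A and 6.18 in si-Ctrl. The 2 summits lay within 100 bp of each other in 63.7% and over 500 bp apart in 11.2%. Each pair was chosen by its width in both lists.

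**Figure D4:**
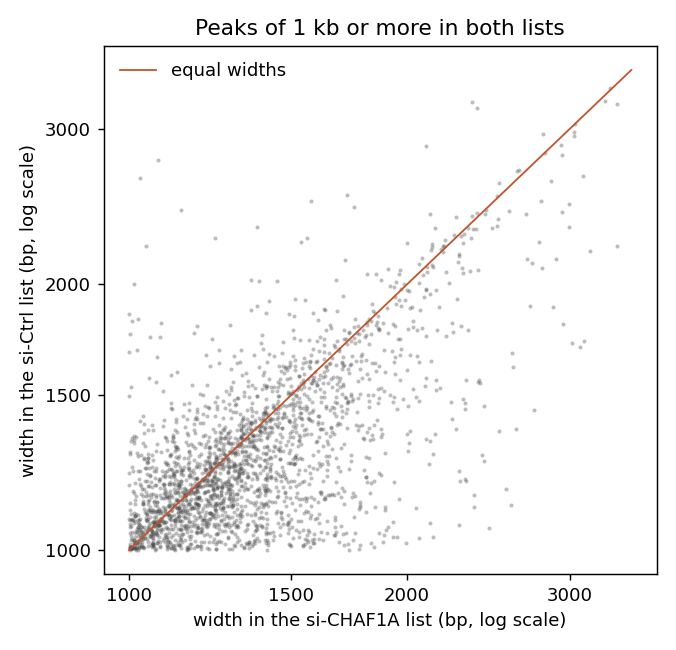
Width in the si-CHAF1A list (x axis, bp, log scale) against width in the si-Ctrl list (y axis, bp, log scale) for the 2321 places where 1 member of each list met; the line marks equal widths. 1457 points lie right of the line, and the median widths are 1309 bp in si-CHAF1A and 1226 bp in si-Ctrl.

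Members with no peak in the other list were weak by their medians. The 222 such si-CHAF1A members had a median −log10 p of 13.8 and a median fold of 3.38, and 16.2% lay at protein-coding starts. The 27 such si-Ctrl members had medians of 19.7 and 4.36, with 5 at starts. The widest in si-CHAF1A were THEM6 (1764 bp, chr8:142734582-142736345, fold 2.37), the body of the kinase gene MAST1 (1731 bp, fold 2.86), EHBP1 (1673 bp, fold 3.58) and LRRIQ4 with LRRC34 (1627 bp, fold 4.14). Starts of SALL1, a zinc finger transcription factor (1524 bp, fold 4.67), of the integrin gene ITGB7 (1496 bp, fold 3.24) and of RECK, an inhibitor of matrix metalloproteinases (1388 bp, fold 5.59), followed. At EHBP1 the pileup at the summit was 33 reads on a background of 8.49, the same as at an intergenic peak of 1620 bp on chromosome 13.

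In si-Ctrl the widest unshared member was at TFR2, a transferrin receptor of liver cells (1483 bp, chr7:100641386-100642868, fold 3.09). A peak of 1139 bp (chr6:27478593-27479731, fold 5.38) covered the tRNA genes TRS-AGA2-2 and TRD-GTC2-6. The strongest of the 6 widest was in RHBDF2, a rhomboid-like protein (1195 bp, fold 4.80, −log10 p 49.3). TINAG, a basement membrane protein first named for the kidney tubule, had 1106 bp with a fold of 6.78, a pileup of 52 reads and the AT-rich promoter printed above. SPSB1 (1105 bp, fold 3.45), LHFPL4 (1075 bp, fold 3.48) and CSGALNACT2 (1051 bp, fold 4.02) made up the other starts.

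Genes among those with the highest folds at starts had a peak in both lists. TTC14 had 1293 bp with a fold of 14.4 in si-CHAF1A and 1187 bp with 14.3 in si-Ctrl. SMC5, a subunit of a DNA repair complex, had 1363 bp with 15.2 in si-CHAF1A, past the limit on p, and 1317 bp with 14.9 in si-Ctrl. LSM8, an RNA-binding protein of the U6 particle, had 1334 bp with 12.6 in si-CHAF1A and 1007 bp with 15.2 in si-Ctrl. MICU3, a regulator of mitochondrial calcium uptake, had 1315 bp with 14.3 in si-CHAF1A, also past the limit on p, and 1281 bp with 15.7 in si-Ctrl.

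The lowest folds at starts stood on high local backgrounds. WDR6, a partner of a tRNA methyltransferase, had a si-CHAF1A fold of 1.83 with a pileup of 215 reads and no si-Ctrl peak. That peak ended before the WDR6 start, in the body of P4HTM. TMEM79 had a si-CHAF1A fold of 1.87 with 272 reads, in a peak that began after its start, and a si-Ctrl peak of 421 bp. MLX, a partner of the glucose-responsive factor ChREBP, had 1080 bp with a fold of 2.11 in si-CHAF1A and 1068 bp with 2.18 in si-Ctrl. EGFL7, a secreted endothelial factor, had 1759 bp with 2.11 in si-CHAF1A and 1153 bp with 2.33 in si-Ctrl, both ending before its listed start.

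A member lay at the start of 3249 of 19970 protein-coding genes in the si-CHAF1A list (16.3%) and of 2159 in the si-Ctrl list (10.8%). Both lists had one at 1661 genes. Of the 1588 genes with a member in si-CHAF1A only, 1516 had a narrower si-Ctrl peak, 27 a wide one past the limit on p and 45 none. Of the 498 with a member in si-Ctrl only, 413 had a narrower si-CHAF1A peak, 79 a wide one past the limit and 6 none. Among genes with a peak of any width, 25.6% of 12685 in si-CHAF1A and 17.9% of 12088 in si-Ctrl had a member. Counts of the gene groups below are read against both backgrounds, and some genes share 1 peak.

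CHAF1A and NAT10 were not among these genes. The CHAF1A peak was 643 bp in si-CHAF1A (fold 12.5) and 544 bp in si-Ctrl (fold 14.0), both past the limit on p. NAT10, the RNA acetyltransferase in the series title, had a si-CHAF1A peak of 959 bp (fold 4.77), just under the width limit, and si-Ctrl peaks of 651 and 166 bp (folds 6.74 and 2.55).

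Of 26 histone chaperone genes, 7 had a member in si-CHAF1A and 10 in si-Ctrl, 6 of them in both. Among those with a peak of any width the share was 26.9% in si-CHAF1A, near the 25.6% of all such genes, and 40% in si-Ctrl, beside 17.9%. NASP, a carrier of H3-H4, had 1791 bp (fold 7.96) in si-CHAF1A and 1778 bp (fold 8.01) in si-Ctrl. RBBP7, a histone-binding relative of the CAF-1 subunit RBBP4, had 1013 bp (fold 6.64) in si-CHAF1A and 1347 bp (fold 8.95) in si-Ctrl. SET, an inhibitor of histone acetylation and PP2A, had 1248 bp (fold 4.96) in si-CHAF1A and 1272 bp (fold 5.12) in si-Ctrl. TONSL, a reader of new histones, was a member in si-CHAF1A only (1483 bp, fold 2.83, beside 778 bp in si-Ctrl). TONSL had no listed start, so either boundary stood for it, and its peak may lie at the far end of the gene. NCL, nucleolin, had a si-CHAF1A peak of 1643 bp, past the limit on p, and a si-Ctrl peak of 1331 bp (fold 9.11), so it counts for si-Ctrl only.

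Of 45 replication fork genes, 15 had a member in si-CHAF1A (39.5% of those with a peak) and 9 in si-Ctrl (23.1%), 8 in both. The shares over all genes with a peak were 25.6% in si-CHAF1A and 17.9% in si-Ctrl. MCM7, part of the replicative helicase, had 1395 bp (fold 4.51) in si-CHAF1A and 1386 bp (fold 6.80) in si-Ctrl, under 1 peak with AP4M1. ORC4, of the origin recognition complex, had 1302 bp (fold 9.26) in si-CHAF1A and 1283 bp (fold 9.27) in si-Ctrl. PCNA, the sliding clamp that CAF-1 binds, was a member in si-CHAF1A only, with 1589 bp (chr20:5126330-5127918, fold 9.94) over si-Ctrl peaks of 786 bp (fold 11.7) and 356 bp. RPA1, a single-strand binding protein, had 1427 bp in si-CHAF1A and 913 bp in si-Ctrl. CDC45, a helicase partner, was the member in si-Ctrl only (796 bp in si-CHAF1A and 1268 bp in si-Ctrl).

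Of 34 genes of transposable element silencing, 12 had a member in si-CHAF1A and 10 in si-Ctrl, 9 in both. Those with a peak gave 37.5% in si-CHAF1A (all genes 25.6%) and 32.3% in si-Ctrl (all genes 17.9%). SUV39H1, an H3K9 methyltransferase, had 1399 bp (fold 7.31) in si-CHAF1A and 1540 bp (fold 7.62) in si-Ctrl. SMCHD1, a silencer of the inactive X, had 1810 bp (fold 3.90) in si-CHAF1A and 2057 bp (fold 5.30) in si-Ctrl. MPHOSPH8, of the HUSH complex, had 1317 bp in si-CHAF1A and 612 bp in si-Ctrl. Among 29 RNA modification genes, 5 had a member in si-CHAF1A and 4 in si-Ctrl, shares near the background, with METTL1, a tRNA methyltransferase, at 1265 bp (fold 7.56) in si-CHAF1A and 1413 bp (fold 8.70) in si-Ctrl. THUMPD1, the tRNA adaptor of NAT10, had 932 bp in si-CHAF1A and 1045 bp in si-Ctrl.

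Of 49 splicing and RNA-binding genes, 18 had a member in si-CHAF1A and 16 in si-Ctrl, 12 in both. Counted over genes with a peak, this was 38.3% in si-CHAF1A (all genes 25.6%) and 33.3% in si-Ctrl (all genes 17.9%). SRSF5, a splicing factor, had 1224 bp (fold 10.5) in si-CHAF1A and 1310 bp (fold 11) in si-Ctrl. U2AF2, which reads the polypyrimidine tract, had 1374 bp (fold 5.75) in si-CHAF1A and 1379 bp (fold 5.49) in si-Ctrl. PRPF38B had 1852 bp (fold 4.63) in si-CHAF1A and 644 bp (fold 6.26) in si-Ctrl. Of 38 chromatin remodelling genes, 8 had a member in si-CHAF1A (23.5% of those with a peak) and 6 in si-Ctrl (17.6%), near the shares of all genes. CHD1 had 1648 bp (fold 8.22) in si-CHAF1A and 1674 bp (fold 7.51) in si-Ctrl.

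Of 25 genes of p53 and DNA damage, 11 had a member in si-CHAF1A (44.0%, interval 24.4% to 65.1%) and 4 in si-Ctrl (16.0%, 4.54% to 36.1%), and all 4 were also si-CHAF1A members. PPM1D, a phosphatase that restrains p53 signalling, had 1930 bp (fold 11.5) in si-CHAF1A over si-Ctrl peaks of 1036 bp (fold 10.3) and 309 bp. GADD45A, a stress gene, had 1931 bp (fold 4.84) in si-CHAF1A over si-Ctrl peaks of 429 and 279 bp. MDM2, the ubiquitin ligase of p53, was the wider in si-Ctrl, with 1394 bp (fold 7.90) in si-CHAF1A and 1521 bp (fold 6.65) in si-Ctrl. The same genes are counted in both lists, so these intervals do not measure the difference between the 2 shares. All 25 genes had a peak in each list. Among all genes with a peak, 25.6% in si-CHAF1A and 17.9% in si-Ctrl had a member.

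Of 30 mitosis genes, 9 had a member in si-CHAF1A (31.0% of those with a peak) and 5 in si-Ctrl (18.5%). BUB3, a checkpoint protein, had 1135 bp (fold 5.85) in si-CHAF1A and 1110 bp (fold 9.38) in si-Ctrl, and MAD2L1 1262 bp (fold 10.2) in si-CHAF1A and 947 bp (fold 10.2) in si-Ctrl. Of 34 translation initiation genes, 10 had a member in si-CHAF1A (32.3% of those with a peak) and 9 in si-Ctrl (26.5%). EIF4E, the cap-binding protein, had 1754 bp (fold 6.26) in si-CHAF1A and 1788 bp (fold 6.77) in si-Ctrl. Of 84 ribosomal protein genes, 19 had a member in si-CHAF1A and 11 in si-Ctrl. Of those with a peak this was 25% in si-CHAF1A (all genes 25.6%) and 14.9% in si-Ctrl (all genes 17.9%). RPL23A had 2298 bp (fold 3.56) in si-CHAF1A and 2228 bp (fold 4.32) in si-Ctrl.

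Of 75 replication-dependent histone genes, 8 had a member in si-CHAF1A and 14 in si-Ctrl, 6 in both. Over those with a peak, this was 17.4% in si-CHAF1A (all genes 25.6%) and 33.3% in si-Ctrl (all genes 17.9%). H2AC19 and H3C15 count for si-Ctrl only, though the peak was 2175 bp wide in both lists (folds 6.62 in si-CHAF1A and 7.68 in si-Ctrl), because the si-CHAF1A peak was past the limit on p. H2BC5 and H1-4 had si-CHAF1A peaks of 770 and 341 bp and shared a si-Ctrl peak of 1552 bp (fold 4.52). Of 509 genes named ZNF, 100 had a member in si-CHAF1A (19.6%) and 78 in si-Ctrl (15.3%). Over ZNF genes with a peak, the shares were 24.2% in si-CHAF1A and 20.1% in si-Ctrl. ZNF274, a zinc finger protein that recruits SETDB1, had 1811 bp (fold 6.33) in si-CHAF1A and 1813 bp (fold 6.77) in si-Ctrl. None of 39 HOX genes had a member in either list, which allows a share of up to 9.03%, and 8 of them had any si-CHAF1A peak and 11 any si-Ctrl peak.

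**Figure D5:**
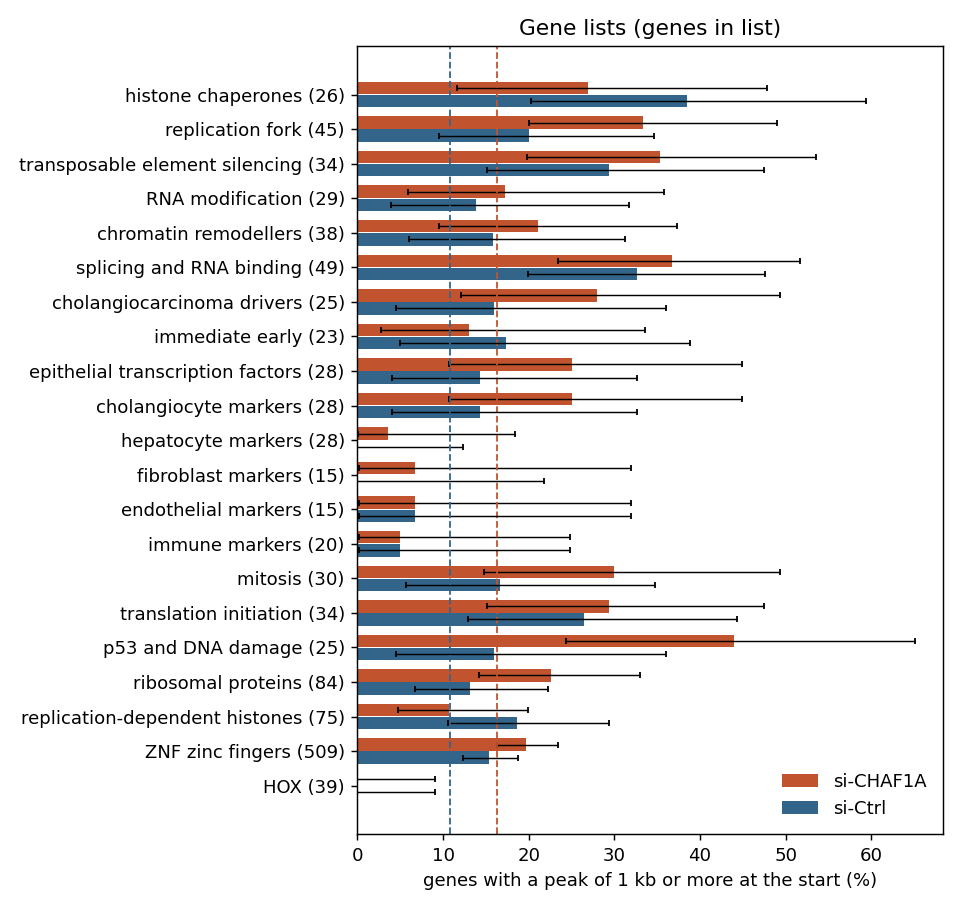
Percent of genes in each list with a peak of 1 kb or more at the start (x axis), si-CHAF1A bar above si-Ctrl bar, with the number of genes in brackets; error bars are 95% exact binomial intervals and dashed lines mark all protein-coding genes (16.3% and 10.8%). p53 and DNA damage genes have the highest si-CHAF1A bar (44.0%) and histone chaperones the highest si-Ctrl bar (38.5%), with wide intervals.

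Among 25 cholangiocarcinoma driver genes, 7 had a member in si-CHAF1A and 4 in si-Ctrl. Drivers with a peak gave 30.4% in si-CHAF1A (all genes 25.6%) and 19.0% in si-Ctrl (all genes 17.9%). IDH1, often mutated in this tumour, had 1530 bp (fold 10.3) in si-CHAF1A and 1351 bp (fold 9.98) in si-Ctrl. BAP1, a deubiquitinase of histone H2A, had 1057 bp (fold 8.50) in si-CHAF1A and 1035 bp (fold 9.51) in si-Ctrl. Of 23 immediate early genes, 3 had a member in si-CHAF1A (16.7% of those with a peak) and 4 in si-Ctrl (20%). EGR1 had 1467 bp (fold 4.26) in si-CHAF1A and 1540 bp (fold 4.31) in si-Ctrl. KLF10 had the same 1064 bp in both lists (fold 3.41 in si-CHAF1A and 4.51 in si-Ctrl).

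Markers of the labelled cell type were compared with those of others by their starts. Of 28 cholangiocyte markers, 7 had a member in si-CHAF1A (25%, interval 10.7% to 44.9%) and 4 in si-Ctrl (14.3%, 4.03% to 32.7%). Both intervals hold the shares of all genes, 16.3% in si-CHAF1A and 10.8% in si-Ctrl. KRT19, a keratin of bile ducts, had 1215 bp (fold 4.41) in si-CHAF1A and 1421 bp (fold 6.76) in si-Ctrl. KRT19 had no listed start, so either boundary stood for it, and neither peak overlapped its body. ELF3 had 1441 bp (fold 4.11) in si-CHAF1A and 1208 bp (fold 4.52) in si-Ctrl. Of 28 epithelial transcription factors, which include ELF3, 7 had a member in si-CHAF1A (25%) and 4 in si-Ctrl (14.3%), with the same intervals as the cholangiocyte markers. TEAD4, a partner of YAP1, had si-CHAF1A peaks of 343 and 220 bp under a si-Ctrl peak of 1500 bp (fold 6.39). Of other cell types, 1 of 28 hepatocyte markers (HNF4A) and 1 of 15 fibroblast markers (ACTA2, in a peak with FAS) had a member in si-CHAF1A, and none in si-Ctrl. The hepatocyte intervals, 0.0904% to 18.3% in si-CHAF1A and up to 12.3% in si-Ctrl, also hold the shares of all genes. A peak of any width lay at 9 hepatocyte markers in si-CHAF1A and 4 in si-Ctrl, beside 18 and 21 cholangiocyte markers. In both lists 1 of 15 endothelial markers (EGFL7) and 1 of 20 immune markers (CD68) had one. A peak at a start does not measure the gene's RNA.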

How the data were processed

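The deposited files were 2 peak lists of CHAF1A CUT&Tag in RBE cells, 1 for si-CHAF1A and 1 for si-Ctrl. Tools named in the submitters' processing notes were MACS2 2.1.2, Bowtie2 2.2.5, deepTools 3.4.3 and fastp 0.20.1, on hg38. The pooling of the 2 samples in a group, and any control library, are not given in the sources used here. Deposited fold values give a linear ratio of signal to background, and deposited p-values and q-values stand as −log10. The deposited score was not used. The lowest −log10 p was 5.00 in each list.

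Peaks on chromosomes 1 to 22 and X were kept. The authors' fold and −log10 p were solved for pileup and background as MACS2 defines them, (pileup + 1)/(background + 1) and the Poisson tail; 99.99% of pileups were whole within 0.02 reads. Gene positions and starts came from RefSeq tables of GRCh38.p14, whose coordinates are those of hg38. Of 19970 protein-coding genes, 15811 had a listed start; for the others, chromosome 8 included, either boundary stood for it. Positions are counted from 1. SPT2 and PRPF4B, written in the gene lists, were matched to no symbol. Scripts were checked on simulated data, and overlaps against bedtools 2.31.1. Software was Python 3.11.15, scipy 1.17.1, pandas 2.3.3, matplotlib 3.10.9 and numpy 2.4.6.

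The members and gene lists were chosen with earlier results of these data known. Genes named were CHAF1A and NAT10; per list, the 8 widest members at protein-coding starts, the 4 highest and 4 lowest in fold and the 4 with the summit farthest from the centre; the 6 widest unshared members, and the 4 widest in genes and outside them; and, per gene list, up to 4 by si-Ctrl width and up to 3 with a member in 1 list only. Examples of these were printed, and some genes that the rule names are not reported here. LOC105377134, VCAN, PAN3, ACTR1B, SALL1, ITGB7, RECK, SPSB1, LHFPL4, CSGALNACT2 and the small RNA genes were named outside the rule, after their values were seen. With 1 list per group no test was made. Alternatives changed the width, the limit on p, the q-value, the number or share of peaks per list, the overlap and the definition of a start.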

Additional observations from a re-analysis of the deposited data

How the results depend on the processing

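Of 50 alternative shares and medians 27 stayed within the interval of the reported one and 23 did not. Of 10 alternative numbers of peaks, which have no interval, 8 stayed within 1.5 times the reported one, the farthest of them 4279 si-CHAF1A peaks with the same share of each list kept by width. None reversed, and under every setting tried the order of the 2 lists was kept for number, sharing, share at starts, fold and summit position. With the same share of each list kept by width, the order of number was set by the list sizes, so that setting could not reverse it. Equal numbers of peaks per list changed the si-CHAF1A number only from 5468 to 5465. The cause of each move was not tested. With the width limit raised by 25% there were 2447 si-CHAF1A and 1286 si-Ctrl peaks, 97.6% and 99.8% of them shared, and si-CHAF1A had 54% at starts and a median fold of 4.78. Without the limit on p, si-CHAF1A had 52.1% at starts, a fold of 4.86 and a summit distance of 0.18, and the si-Ctrl fold was 6.25. With −log10 q of at least 10 in both lists, 88.2% of si-CHAF1A and 96.9% of si-Ctrl peaks were shared, and si-CHAF1A had 52.2% at starts and a fold of 4.80. A 50% reciprocal overlap left 72% of si-CHAF1A and 90.3% of si-Ctrl peaks shared, and equal numbers of peaks per list 98.7% of si-Ctrl. The share at starts was 53.5% in si-CHAF1A and 56.2% in si-Ctrl with a 3 kb window, 48.7% and 51.4% at either end of every gene, and 58.4% and 62.1% for any annotated gene. With listed starts only, an alternative chosen after seeing the data, it was 42.4% in si-CHAF1A and 45.8% in si-Ctrl. No paired analysis was possible because the labels number the samples of both groups 1 and 2 but each list does not keep its samples apart. For the same reason no sample could be left out in turn.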
